A study of Mus musculus with 8 samples.

Results

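The sites described here are 313 Foxp3 binding sites of mouse regulatory T (Treg) cells that the study's authors listed as cTreg-specific and that lie between genes. A site was taken when its centre fell outside the body of every protein-coding gene in RefSeq (GRCm38.p6). Of 727 cTreg-specific sites, 413 had their centre inside a gene body and 1, on an unplaced X chromosome scaffold, could not be placed. The study lists 5521 sites in all, the others being called common or eTreg-specific (effector Treg). Every member spans 400 bp.

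Foxp3 occupancy was read by CUT&Tag, in which an antibody brings a transposase to chromatin so that nearby DNA is cut, tagged and sequenced. Treg cells, CD4+hCD2+GFP- in the sort, were sorted fresh from spleen and lymph nodes of mice of the C57BL6/J strain. The WT cells came from Foxp3WT-IRES-hCD2/Foxp3-IRES-GFP heterozygotes and the R397W cells from Foxp3R397W-IRES-hCD2/Foxp3-IRES-GFP heterozygotes. Each genotype has 2 libraries made with an in-house rabbit polyclonal antibody to Foxp3 and 2 made with normal rabbit IgG as background. All 4 groups share the hCD2 reporter, and both kinds of mice also carry a Foxp3-IRES-GFP allele, whose GFP+ cells the sort leaves out. The labels used here give no age, and do not say whether replicates 1 and 2 came from separate mice, so a p-value here reflects how far these samples spread, and that spread may be technical. No expression was measured, so the cell type could not be checked against marker genes.

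Foxp3 is the forkhead transcription factor that Treg cells need for their identity and suppressive function. Resting Treg cells share with naive T cells a program kept by factors such as TCF1, LEF1, KLF2 and FOXO1, while effector Treg cells lose much of it on activation. Many of the DNA elements that control such genes are enhancers, which can lie far from the gene they act on, so the nearest gene is only a position label and not a known target.

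Sequence can be shown only for windows next to a listed transcription start, which a member overlaps in part or in full. Of the 313 members, 9 overlapped 11 windows around listed starts, 4 of protein-coding and 7 of lncRNA genes. The 250 bases before the start are printed for 5 of these windows, taken from RefSeq (GRCm38.p6), 5′ to 3′ on the gene's strand. They were chosen because they start a T cell gene or lie in an interval that holds several members. Capitals mark matches, on either strand, to one of 6 letter strings: TGTTTAC (forkhead), TTTGTTTG (T3G repeat), CAGGAA (ETS), TGTGGT (Runx), CTTTGA (TCF) and TGANTCA (AP-1).
Pik3r5 (chr11:68431875-68432124, plus strand): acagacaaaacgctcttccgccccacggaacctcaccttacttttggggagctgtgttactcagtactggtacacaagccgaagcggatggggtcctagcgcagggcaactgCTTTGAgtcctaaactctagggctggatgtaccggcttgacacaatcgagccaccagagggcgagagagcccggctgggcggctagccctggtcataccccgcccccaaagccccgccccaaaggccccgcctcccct
Ms4a4b (chr19:11443308-11443557, plus strand): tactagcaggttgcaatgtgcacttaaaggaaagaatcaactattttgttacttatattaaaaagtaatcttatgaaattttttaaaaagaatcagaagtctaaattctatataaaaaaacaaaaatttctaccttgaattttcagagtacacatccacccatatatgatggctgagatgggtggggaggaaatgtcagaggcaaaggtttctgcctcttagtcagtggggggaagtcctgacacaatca
Gm33728 (chr10:21252243-21252492, minus strand): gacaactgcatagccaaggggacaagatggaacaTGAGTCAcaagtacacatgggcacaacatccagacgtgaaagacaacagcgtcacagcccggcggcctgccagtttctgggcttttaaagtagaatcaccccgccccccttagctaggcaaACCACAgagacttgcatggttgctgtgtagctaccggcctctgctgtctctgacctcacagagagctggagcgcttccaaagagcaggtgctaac
Gm13982 (chr2:117417698-117417947, minus strand): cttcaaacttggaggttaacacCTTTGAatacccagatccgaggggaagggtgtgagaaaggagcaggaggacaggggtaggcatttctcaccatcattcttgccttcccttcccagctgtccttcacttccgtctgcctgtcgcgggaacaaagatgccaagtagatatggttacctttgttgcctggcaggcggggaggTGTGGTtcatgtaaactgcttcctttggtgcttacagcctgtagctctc
Gm4668 (chr9:116188930-116189179, plus strand): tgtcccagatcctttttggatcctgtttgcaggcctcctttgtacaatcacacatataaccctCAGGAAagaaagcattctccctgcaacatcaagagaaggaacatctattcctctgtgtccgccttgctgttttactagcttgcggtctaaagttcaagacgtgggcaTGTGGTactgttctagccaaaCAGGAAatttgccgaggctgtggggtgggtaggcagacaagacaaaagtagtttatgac
Pik3r5 encodes a regulatory subunit of PI3K gamma and Ms4a4b a membrane protein of T cells. Gm33728 lies between Myb and Hbs1l, Gm13982 upstream of Rasgrp1 and Gm4668 upstream of Tgfbr2. Runx letters stood in 6 of the 11 windows, TCF letters in 4, ETS letters in 2 and AP-1 letters in 1. The forkhead and T3G strings were found in 0 of the 11, and 3 windows held none of the strings. Among all 32851 windows of that length, 14.0% held the Runx letters, 13.8% the TCF letters, 25.7% the ETS letters, 6.75% the AP-1 letters, 3.17% the forkhead letters and 2.37% the T3G letters. The members cover 250 bases of the Pik3r5 and Gm33728 windows, 209 of Ms4a4b, 201 of Gm13982 and 244 of Gm4668. Matches were counted over the whole window, so some lie outside the member, among them the TCF letters of Gm13982. A match describes these letters only and is not a measured binding site.

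Few of the members sat at a promoter. The centre lay a median of 27422 bp from the nearest end of a protein-coding gene (quartiles 8926 and 73629 bp), with a range from 3 to 593597 bp. Within 5 kb of a gene lay 54 members, 143 lay at 5 to 50 kb, 54 at 50 to 100 kb and 62 beyond 100 kb. The share within 5 kb was 17.3%, against 36.7% of the 1290 common sites outside genes and 15.0% of the 412 eTreg-specific ones. Beyond 100 kb were 19.8% of the members, 13.7% of common and 17.2% of eTreg-specific sites. The median distance was 12648.5 bp for the common class and 26985.5 bp for the eTreg-specific class. Among sites with a listed transcription start on their chromosome, one lay within 1 kb of 6 members (1.98%), 213 common sites (16.8%) and 9 eTreg-specific sites (2.27%).

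The share of sites outside genes was 43.1% for the cTreg-specific class, 33.5% for the common and 43.5% for the eTreg-specific class. Where the strand of the nearest gene was listed, 157 members lay upstream and 105 downstream of it, and 51 had no strand listed. The body of a non-coding gene held 81 members. Another cTreg-specific site lay within 10 kb of 58 members (18.5%), a common site within 10 kb of 74 (23.6%) and an eTreg-specific site within 10 kb of 5 (1.60%). The eTreg-specific sites outside genes were alike: 19.4% had another eTreg-specific site within 10 kb and 0.971% a cTreg-specific site. Of common sites outside genes, 27.1% had another common site within 10 kb. These are descriptions of the site lists and carry no test.

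**Figure D1:**
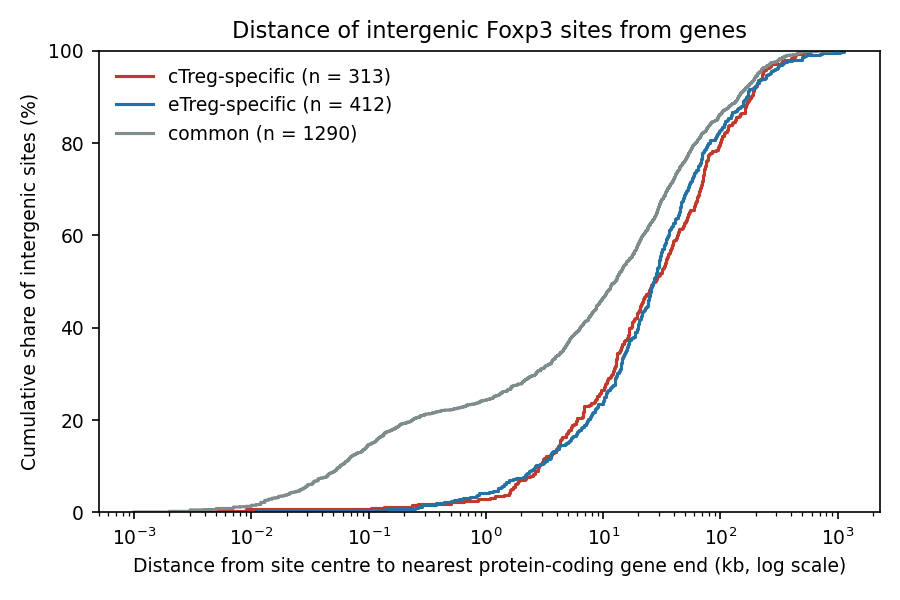
Cumulative share (%) of the sites outside genes in each of the 3 classes against the distance from the site centre to the nearest protein-coding gene end (kb, log scale). The cTreg-specific and eTreg-specific classes have medians of 27422 and 26985.5 bp and the common class 12648.5 bp.

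The 313 members had 243 different nearest genes, of which 198 had 1 member, 32 had 2 and 13 had 3 or more. Those 13 genes account for 51 members. Satb1, which encodes a chromatin organiser of T cell development, had 8. Btg1, an antiproliferative gene linked to T cell quiescence, had 6, and Rasgrp1, a Ras activator downstream of the T cell receptor, had 5. Itga4, the integrin alpha 4 chain, and Setbp1 had 4 each. Prkcq (the kinase PKC-theta of T cell receptor signalling), Tgfbr2 (a TGF-beta receptor chain), Tnfaip3 (A20, an inhibitor of NF-kB signalling), Zfp281, Ms4a4a, Olig3, Spata48 and 4933412E24Rik had 3 each.

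Some stretches between genes held several members. The other site classes were not grouped by interval, so no comparison with them is given. Of 227 gene-free intervals that held a member, 16 held 3 or more, 65 members in all. The 769 kb between Satb1 and Kcnh8 held 7 members, and the 341 kb between Tnfaip3 and Olig3 held 6. Between Btg1 and Gm46240 (279 kb) there were 5, and between Rasgrp1 and Thbs1 (769 kb) also 5. The 74.0 kb stretch between Spata48 and 4930512M02Rik also held 5. The gene beyond that stretch is Ikzf1, which encodes the lymphoid factor Ikaros, and its start was 115 to 165 kb from those 5 sites. Ikzf1 was looked up there after its position was seen, and it also had a member of its own 5895 bp upstream.

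**Figure D2:**
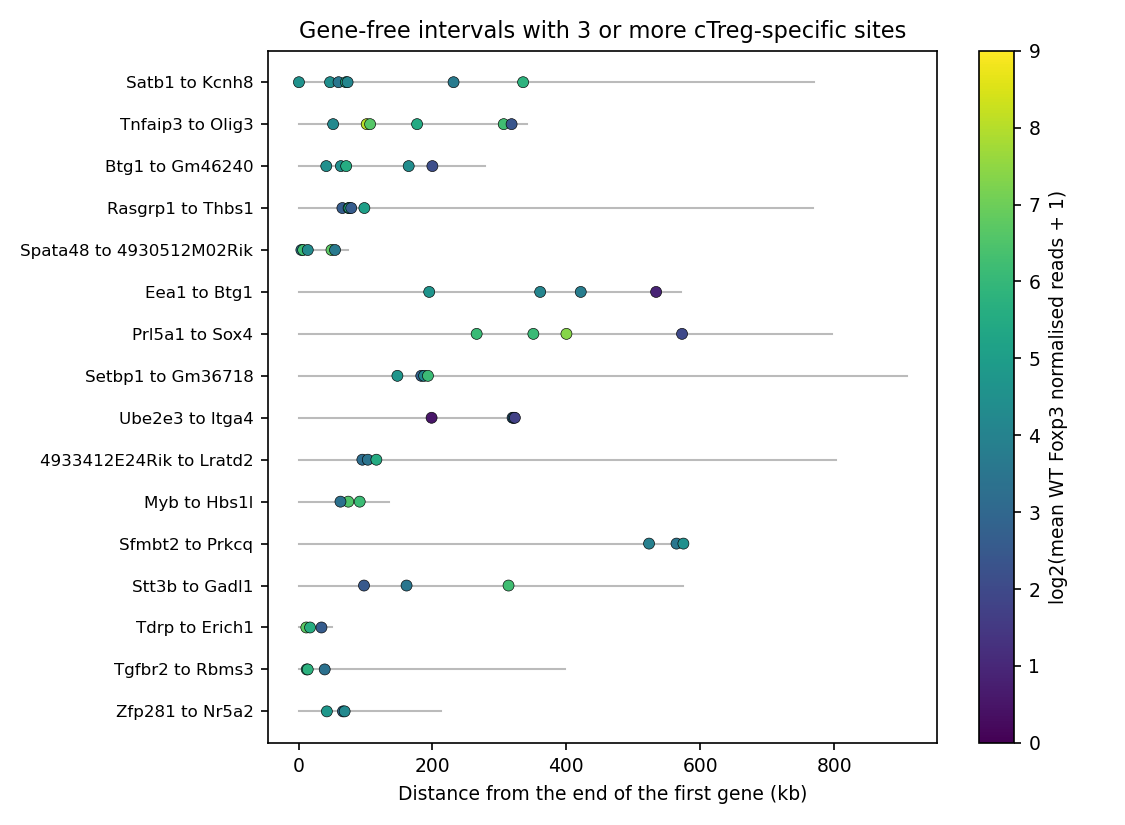
The 16 gene-free intervals with 3 or more members, drawn as grey lines against the distance from the end of the first gene (kb), with each member as a point coloured by log2(mean WT Foxp3 value + 1). The Satb1 to Kcnh8 interval holds 7 members over 769 kb, and the Spata48 to 4930512M02Rik interval 5 over 74.0 kb.

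Most genes with a member had no cTreg-specific site in their body. Of the 243 nearest genes, 29 had one. A common site, inside or outside the body, was assigned to 130 of them and an eTreg-specific site to 33. Those classes hold 3847 and 947 sites, against 413 cTreg-specific sites inside genes, so these counts cannot be set against each other. By chromosome, 32 members lay on chromosome 10, 26 on chromosome 2, 25 on chromosome 1 and 3 on the X chromosome. Within 25 kb of each other, 85 members formed 36 clusters, and 33 of these members were in the 10 clusters of 3 or more.

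A set of 9 lists of immune genes, chosen with earlier results of these data known, was read against the members. A list gene was the nearest gene of 37 members, 24 genes in all. The lists hold 8 to 24 genes, and their order carries no test. The naive and resting T cell list had the most, 21 members (6.71%) at 10 of its 22 genes. These were Tcf7, Lef1, Satb1, Klf2, Foxo1, Myb, Ets1, S1pr1, Ccr9 and Dapl1, with 8 of the 21 members at Satb1 alone. The same list was nearest to 7.51% of the cTreg-specific sites inside genes, 2.17% of common sites outside genes and 0.971% of eTreg-specific sites outside genes. Effector Treg genes had 2 members, at Gata3 and Gzmb, while 16 eTreg-specific sites outside genes (3.88%) belonged to that list. Factors of the Runx, Ets, Stat and TGF-beta group had 6 members, at Ets2, Ikzf1, Runx3 and Tgfbr2.

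T cell receptor signalling genes had 4 members, at Cd28, Cd5, Cd6 and Ptprc. T helper and cytokine genes had 3, at Ifng, Il6ra and Il6st. The core Treg list had 1, 6903 bp upstream of Il2ra, the gene of the high-affinity IL-2 receptor chain. The lists of AP-1, IRF and NFAT factors, of B and myeloid cells and of CD8 T and NK cells had 0 members. No site at a list gene passed the adjusted threshold in any of the comparisons given further on.

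A few members were far from any protein-coding gene. The farthest, 593597 bp from Gm36448, lay 169 bp from Trav11n, a variable segment of the T cell receptor alpha locus. Such segments are not annotated as protein-coding, and 2 other members lay 9369 and 604 bp from the beta locus segments Trbv12-1 and Trbv16. Next in distance came a site 503196 bp from Myc and one 443028 bp from Sall3. At the Myc site the values were 15.2 and 0 in WT Foxp3 and 13.5 and 0 in R397W Foxp3, so the replicate 2 library was empty in both genotypes.

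Values are the authors' normalised read counts, given from here on for replicates 1 and 2 in that order. A value of 0 allows up to 3 reads, which corresponds to 1.55 to 6.48 normalised reads depending on the library. The members held 6979 to 17076 reads in the Foxp3 libraries and 6350 to 12105 in the IgG libraries. Replicate 2 was sparse in every group: 47.3% of members had no reads in WT Foxp3 replicate 2 against 1.28% in replicate 1, and 59.4% against 12.1% in R397W Foxp3. In WT IgG the shares were 24.3% and 76.0%, and in R397W IgG 13.1% and 65.5%. Only 24 members had reads in all 8 libraries and 86 in all 4 Foxp3 libraries. The part of this sparseness in the results was not tested.

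Averaged over the members, the value was 45.9 and 20.2 in WT Foxp3, giving 33.0 ± 18.2 (SD, n = 2). In R397W Foxp3 it was 37.6 and 25.5, or 31.6 ± 8.50 (SD, n = 2). The IgG libraries gave 33.2 and 15.4 in WT, or 24.3 ± 12.6 (SD, n = 2), and 43.9 and 18.8 in R397W, or 31.3 ± 17.7 (SD, n = 2). Replicates of a group differed by more than the groups did. Across the 313 members the 2 WT Foxp3 libraries had a Spearman correlation of 0.52 and the 2 R397W Foxp3 libraries 0.34, while WT Foxp3 replicate 1 reached 0.69 with R397W Foxp3 replicate 1 and 0.63 with R397W IgG replicate 1. These correlations describe sites that share libraries and depth, and carry no test.

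The sites with the highest WT Foxp3 mean were led by one 16469 bp upstream of Tcf7 (chr11:52299652-52300052), which encodes TCF1. Its value was 158 and 427 in WT Foxp3 and 243 and 60.3 in R397W Foxp3, with WT IgG at 376 and 124 and R397W IgG at 387 and 267. In WT the Foxp3 and IgG libraries overlapped, while in R397W both Foxp3 libraries lay below both IgG libraries. The Foxp3 libraries of the genotypes overlapped. The second lay 101864 bp upstream of Tnfaip3 (chr10:19117074-19117474), with 450.4 and 72.2 in WT Foxp3 and 96.0 and 10.6 in R397W Foxp3, with WT IgG at 33.4 and 0 and R397W IgG at 128 and 30.6. There both WT Foxp3 libraries lay above both WT IgG libraries, and R397W Foxp3 overlapped WT Foxp3.

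At a site 132819 bp downstream of Bcl2l11 (chr2:128295166-128295566), the gene of the pro-apoptotic protein BIM, the value was 173 and 208 in WT Foxp3 and 94.4 and 281 in R397W Foxp3, with WT IgG at 124 and 0 and R397W IgG at 147 and 141. Both WT Foxp3 libraries exceeded WT IgG, by 4.09 ± 1.23 (SE) on the log2(value + 1) scale. The limma p of 0.00092 did not pass adjustment over all sites (adjusted p = 0.391). The site 1776 bp from Cd6 (chr19:10787363-10787763), the gene of a T cell surface receptor, had 141 and 232 in WT Foxp3 and 125 and 41.8 in R397W Foxp3, with WT IgG at 99.5 and 0 and R397W IgG at 149 and 191. Its WT difference over IgG was 4.18 ± 1.42 (SE), with a limma adjusted p of 0.749, and in R397W both Foxp3 libraries lay below both IgG libraries.

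Of the other 4 highest sites, the one 168880 bp from Ankrd50 had 207 and 215 in WT Foxp3 and 194 and 294 in R397W Foxp3. One 397151 bp from Sox4, an HMG-box factor of lymphocyte development, had 294 and 36.1 in WT Foxp3 and 69.1 and 0 in R397W Foxp3. One 70610 bp from the zinc transporter gene Slc39a11 had 137 and 165 in WT Foxp3 and 103 and 19.1 in R397W Foxp3. Of these 4 sites, only at Slc39a11 did IgG exceed all 4 Foxp3 libraries, with replicate 1 at 262 in WT IgG and 246 in R397W IgG. The site 187761 bp from Ifng, the interferon gamma gene, had 262 and 16.0 in WT Foxp3 and 172 and 149.6 in R397W Foxp3, with the genotypes overlapping.

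**Figure D3:**
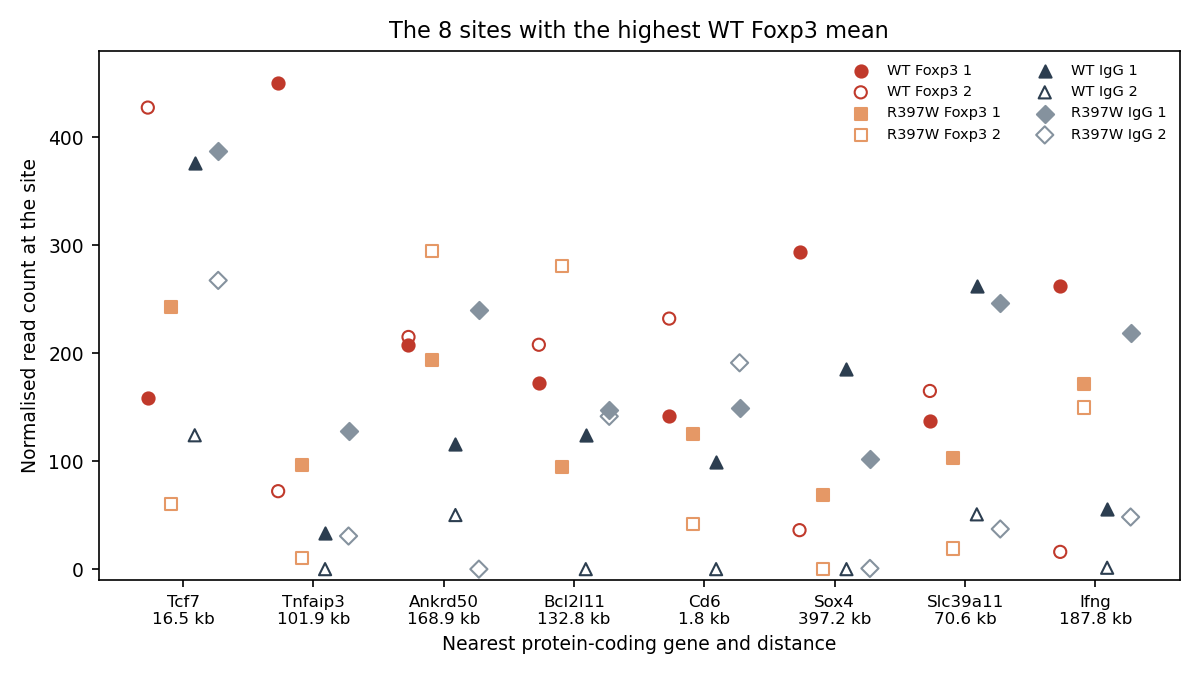
Normalised read count of each of the 8 libraries at the 8 members with the highest mean of the WT Foxp3 libraries (y axis), by nearest gene and distance (x axis), with filled symbols for replicate 1 and open ones for replicate 2. At Tcf7 the IgG points reach 387, within the range of the Foxp3 points, and at Tnfaip3 WT Foxp3 replicate 1 stands at 450.4.

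Whether Foxp3 signal exceeded IgG background was asked within each genotype. In WT, Foxp3 exceeded IgG of the same replicate at 221 members in replicate 1 and 130 in replicate 2, and 127 members had no reads in either library of replicate 2. These are 70.6% and 41.5% of the members, beside 72.7% and 41.9% of all sites. The mean over members was 1.38 and 1.31 times that of IgG, against 1.17 and 1.11 for cTreg-specific sites inside genes. In R397W the ratio was 0.857 and 1.36, against 0.927 and 1.46 for cTreg-specific sites inside genes. Foxp3 was above IgG in R397W at 130 and 99 members (41.5% and 31.6%, beside 48.9% and 31.3% of all sites). The highest of the 8 libraries was an IgG library at 144 members and a Foxp3 library at 169.

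At 47 members (15.0%) both WT Foxp3 libraries lay above both WT IgG libraries, beside 19.5% of all 5521 sites. All sites come from 3 files whose library factors differ, so such shares and medians over all sites are a background and not a test against the members. At 11 members they lay below, beside 4.84% of all sites. The 47 became 197 when WT Foxp3 replicate 2 was left out and 128 when WT IgG replicate 1 was, a count that can only stay or rise in this way. The largest such differences were at Tprg, Ptpn1 (the phosphatase PTP1B), Phlda1 and 4933412E24Rik, each with both WT IgG libraries at 0. The value 2883 bp from Tprg was 72.4 and 49.5 in WT Foxp3 and 67.4 and 34.7 in R397W Foxp3, and R397W IgG had 73.5 and 3.26. The site 91050 bp from Ptpn1 had 33.7 and 91.8 in WT Foxp3 and 6.74 and 150.3 in R397W Foxp3. At both sites the R397W Foxp3 libraries overlapped those of WT.

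With limma, 0 members passed an adjusted p of 0.05 for WT Foxp3 over IgG, where 4 of all sites (0.0725%) did. At an unadjusted p under 0.05 there were 4 members, all higher, beside 2.41% of all sites higher and 0.163% lower. On whole reads edgeR and DESeq2 also called 0 members. At an unadjusted p under 0.05 they had 4 and 14 members, beside 42 and 197 of all 5521 sites. The median fitted difference was 1.11 over the members and 1.27 over all sites. Its sign rests on single libraries: it was 0 when the first WT Foxp3 library was left out, -0.14 without the second WT IgG library, and 2.66 without the second WT Foxp3 library. In R397W, limma called 0 members (0 of all sites), with 2 higher and 1 lower at an unadjusted p under 0.05 (0.906% and 0.561% of all sites). On whole reads edgeR called 0 members with 0 at that p, and DESeq2 called 0 with 7, beside 20 and 81 of all 5521 sites. The median difference was 0, beside 0.05 over all sites. There 25 members had both Foxp3 libraries above IgG and 24 below, beside 10.4% and 7.84% of all sites.

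The R397W change lies in the forkhead domain, the part of Foxp3 that contacts DNA, and the design asks whether occupancy differs between the genotypes. No member passed the test: limma called 0 members, and 0 members had an unadjusted p under 0.05, where 0.272% of all sites were lower and 0.0543% higher. On whole reads, edgeR and DESeq2 called 0 members. At an unadjusted p under 0.05 they had 2 members each, beside 40 and 60 of all 5521 sites. The fitted difference R397W minus WT was below 0 at 198 members (63.3%) and above 0 at 113 (36.1%), beside 60.4% and 38.5% of all sites. Its median was -0.39, equal to -0.39 over all sites. It was -0.26 for cTreg-specific sites inside genes. By replicate, R397W was lower at 201 and higher at 109 members in replicate 1, and lower at 116, higher at 90 and equal at 107 in replicate 2. The counts by replicate were not made over all sites. The median was 0.96 when the first WT Foxp3 library was left out and 0.67 when the second R397W Foxp3 library was, so its sign rests on single libraries. With the second WT Foxp3 library left out, the median was -1.86 over the members and -1.68 over all sites.

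At 37 members (11.8%) both R397W Foxp3 libraries lay below both WT Foxp3 libraries, beside 12.6% of all sites. At 19 (6.07%) both lay above, beside 6.43%. The 37 became 162 without the second WT Foxp3 library and 111 without the first R397W one. The 19 became 100 without the second R397W library, 69 without the first WT one and 56 without the first R397W one. Leaving out a library can only keep or raise such counts, so a rise by itself is no result. The largest fitted drops were near Phlda1, Ptprc and Foxo1, where both R397W libraries had no reads. Ptprc encodes the phosphatase CD45, and its site 161841 bp downstream (chr1:137900818-137901218) had 53.9 and 13.4 in WT Foxp3. The site 217662 bp from Foxo1 had 13.5 and 23.2, and a second Foxo1 site, 268318 bp away, had 10.1 and 16.5, also with R397W at 0. FOXO1 is a forkhead factor of resting lymphocytes.

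The largest fitted rises were near Plcl2, Prkcq and P4ha2, a collagen prolyl hydroxylase gene. Values were 42.9 and 0 in WT Foxp3 and 62.3 and 159 in R397W Foxp3 1763 bp upstream of Prkcq. They were 10.1 and 0 in WT Foxp3 and 21.9 and 138 in R397W Foxp3 at Plcl2 and 9.26 and 0 in WT Foxp3 and 33.7 and 63.8 in R397W Foxp3 at P4ha2. In all 3 the WT Foxp3 replicate 2 library was at 0 while R397W replicate 2 was the highest of the 4.

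**Figure D4:**
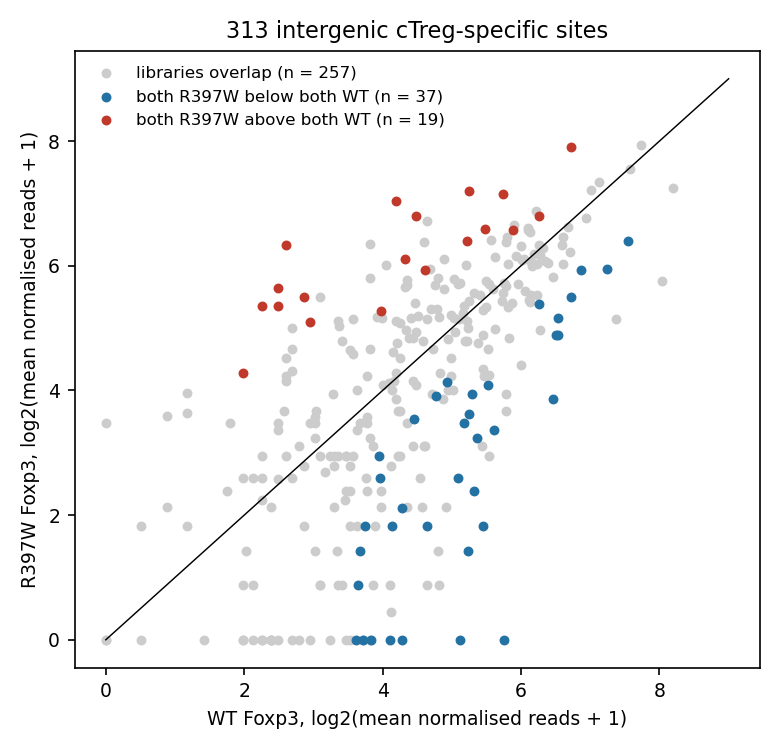
Each point is 1 of the 313 members, with log2(mean of 2 Foxp3 libraries + 1) in WT on the x axis and in R397W on the y axis; the line marks equal values. Blue points are the 37 members with both R397W libraries below both WT libraries, red points the 19 with both above, and grey points the others.

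In the interval from Tnfaip3 to Olig3, a second Tnfaip3 site 106934 bp upstream had 151 and 42.8 in WT Foxp3 and 109.5 and 19.1 in R397W Foxp3, with WT IgG at 69.5 and 46.2 and R397W IgG at 43.2 and 0. A site 164026 bp from Olig3 had 74.9 and 10.8 in WT Foxp3 and 38.8 and 0 in R397W Foxp3, and all 4 IgG libraries at 0. The site 34617 bp from Olig3 had 71.6 and 76.3 in WT Foxp3 and 96.0 and 31.9 in R397W Foxp3, while WT IgG reached 247 in replicate 2. Neighbouring sites of 1 interval thus differed in their IgG background.

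Sites of other clusters ranged from near 0 to moderate values. Of the 6 Btg1 sites, only that 63278 bp downstream had reads in all 8 libraries, at 18.5 and 23.2 in WT Foxp3 and 13.5 and 7.80 in R397W Foxp3, with WT IgG at 4.29 and 16.7 and R397W IgG at 34.6 and 24.8. The 4 sites upstream of Itga4 averaged 4.00 and 6.70 in WT Foxp3, with reads at 3 and 2 of them. At the one 3520 bp away the value was 4.21 and 0.516 in WT Foxp3 and 8.43 and 0 in R397W Foxp3. At the one 6911 bp away it was 10.9 and 0 in WT Foxp3 and 48.9 and 0 in R397W Foxp3. Among the Spata48 sites, the one 6881 bp downstream was the most even, with 86.7 and 63.9 in WT Foxp3 and 96.0 and 63.8 in R397W Foxp3, with WT IgG at 82.3 and 82.9 and R397W IgG at 104 and 0. Its Foxp3 libraries spanned a narrower range than those of its neighbours, and 3 of its IgG libraries were as high.

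The resting-program genes with several members showed the same unevenness. Of the 8 Satb1 sites, the one 645 bp upstream had 36.2 and 9.80 in WT Foxp3 and 32.0 and 21.3 in R397W Foxp3, the only one of the 8 with reads in all 4 Foxp3 libraries. The one 335460 bp upstream had 108 and 0 in WT Foxp3 and 28.6 and 0 in R397W Foxp3, and the one 70840 bp upstream 90.1 and 0 in WT Foxp3 and 48.9 and 0 in R397W Foxp3. Lef1 had a member 162840 bp upstream with 135 and 108 in WT Foxp3 and 163 and 53.2 in R397W Foxp3, with WT IgG at 145 and 45.6 and R397W IgG at 125 and 91.3, with all groups overlapping. A site 78480 bp from S1pr1, the receptor that guides lymphocytes out of lymph nodes, had 98.5 and 52.6 in WT Foxp3 and 35.4 and 46.1 in R397W Foxp3, with no reads in WT IgG replicate 2. Its WT Foxp3 libraries lay above WT IgG and above both R397W Foxp3 libraries.

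Sites at other list genes varied as much. The Runx3 member, 40117 bp upstream, had 88.4 and 167 in WT Foxp3 and 45.5 and 249 in R397W Foxp3, with WT IgG at 108 and 59.7 and R397W IgG at 184 and 243. R397W IgG lay there within the range of R397W Foxp3. Of the 3 Tgfbr2 sites, the one with the printed Gm4668 window had 105 and 0 in WT Foxp3 and 43.8 and 48.9 in R397W Foxp3. The Rasgrp1 site with the Gm13982 window had 62.3 and 47.9 in WT Foxp3 and 128 and 0 in R397W Foxp3. At Klf2, which encodes a factor of T cell quiescence and trafficking, the site 15283 bp upstream had 18.5 and 0 in WT Foxp3 and 67.4 and 0 in R397W Foxp3. The Ccr9 site, 10292 bp upstream of that chemokine receptor gene, had 36.2 and 20.6 in WT Foxp3, above both WT IgG libraries, which were at 0. The Il2ra site had 58.1 and 0 in WT Foxp3 and 6.74 and 0 in R397W Foxp3, and R397W IgG there had 13.0 and 94.5.

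The IgG libraries were compared in the same way. With limma 0 members differed between the genotypes, beside 0.0181% of all sites higher and 0.0181% lower, and 4 members were higher and 1 lower at an unadjusted p under 0.05 (1.52% and 0.725% of all sites). By edgeR and DESeq2 0 members were called, with 3 and 17 at that p, beside 45 and 218 of all 5521 sites. In R397W both IgG libraries lay above both WT ones at 41 members and below at 14, beside 11.3% and 5.51% of all sites. The median difference was 0.41 over the members and 0.33 over all sites. The difference between genotypes in Foxp3 minus IgG, tested as an interaction, was called at 0 members and 0 of all sites. At an unadjusted p under 0.05 there were 7 members lower and 0 higher, beside 1.38% and 0.272% of all sites. There too edgeR and DESeq2 called 0 members, with 2 and 5 at that p, beside 30 and 109 of all sites. The median was -1.16, beside -1.02 over all sites.

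Distance from genes did not order the values. Mean values in WT Foxp3 were 48.8 and 24.2 within 5 kb of a gene, 41.2 and 19.4 at 5 to 50 kb, 38.0 and 18.9 at 50 to 100 kb, and 61.2 and 19.4 beyond 100 kb. The farthest group thus had the highest WT mean in replicate 1 and not in replicate 2. In R397W Foxp3 replicate 1 the means were 41.1, 37.2, 31.0 and 41.0 in the same order. In R397W Foxp3 replicate 2 the farthest group was the highest, at 28.9, followed by 27.1 at 5 to 50 kb, with the lowest, 16.1, at 50 to 100 kb. Relative to cTreg-specific sites inside genes, the log2 ratio of reads was lower in R397W than in WT Foxp3 by 0.18 and 0.06 in the 2 replicates, within the spread between replicates (SD 0.26). Between the IgG libraries the same ratio was higher in R397W by 0.18 and 0.28.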

How the data were processed

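The deposited signal is a normalised read count per library at each site, which the file names call spike-in normalised. Per the submitters' processing notes, DiffBind 3.12.0 and Bowtie2 2.5.2 were used, and the builds were dm6 and mm10; their roles and the site calling are not given there. Within a library and file, 100% of values were whole multiples of 1 unit (tolerance 0.01), so whole reads were recovered. Each file has its own factor per library, so values over all sites mix 3 scalings and are given beside those of the members as a background only.

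The members and gene lists were chosen with earlier results of these data known. Coordinates were taken as mm10, and gene positions came from RefSeq (GRCm38.p6). Values were tested as log2(value + 1) with limma 3.58.1 in R 4.3.3 (trended, two-sided, Benjamini-Hochberg over all 5521 sites, threshold 0.05). The genotype comparison used the 4 Foxp3 libraries and the others all 8 libraries. No site was filtered out. Fold changes on that scale understate the change of weak sites. Recovered reads were also tested in DESeq2 1.42.0 and edgeR 4.0.16, where the factor of each library and file entered as an offset. The limma step was also run on simulated data. Its outcome is not given here, so that run carries no weight for the sites that were not called.

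Sites are named if they were among the 8 highest in WT Foxp3, among the largest fitted differences without overlap, nearest a list gene, at a gene with 3 or more members, among the farthest, or at a promoter window. Settings varied were the pseudocount (0.5 and 5), a filter that drops the lowest 25% of sites, scaling to equal totals, a replicate block, other definitions of a gene body and each library left out. Intervals and floors cover counting error only. The promoter table holds no window on chromosome 18.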

Additional observations from a re-analysis of the deposited data

Results flagged for a closer look

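Within each library, the reads at the 313 sites outside genes were set against those at the cTreg-specific sites inside genes, a ratio in which the library factor cancels. The log2 ratio was higher in Foxp3 than in IgG libraries by 0.24 and 0.24 in WT (replicates 1 and 2), and the same difference was -0.11 and -0.10 in R397W. The genotypes thus differed by -0.35, with both WT pairs above 0 and both R397W pairs below 0. The difference was not tested, and the pairs join libraries that share only a replicate number. Without the 10 sites with the most reads in each library it was 0.042, so the direction rests on those sites. Among common sites the values were -0.09 and -0.04 in WT and -0.01 and 0.11 in R397W. Among eTreg-specific sites they were 0.17 and 0.18 in WT and 0.05 and -0.04 in R397W. With gene bodies widened by 5 kb, the genotype difference was -0.21 for cTreg-specific, -0.37 for common and -0.25 for eTreg-specific sites. The cTreg-specific pairs were then 0.16 and 0.12 in WT and -0.18 and 0.04 in R397W.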

How the results depend on the processing

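With 1 library left out at a time, members called by limma ranged from 0 to 26 for R397W against WT Foxp3 (26 without WT Foxp3 replicate 2), 0 to 4 for WT Foxp3 over IgG (4 without WT Foxp3 replicate 2, 2 without WT IgG replicate 1, 1 without WT Foxp3 replicate 1), 0 to 2 between the IgG groups (2 without WT IgG replicate 1) and 0 to 4 for the interaction (4 without WT Foxp3 replicate 2), and stayed at 0 for R397W Foxp3 over IgG. The lone library left in an arm is assumed to vary like the other groups. The median difference R397W minus WT ranged from -1.97 to 0.96, and that of WT Foxp3 over IgG from -0.14 to 2.66. Counts of members without overlap were an alternative chosen after seeing the data. They ranged from 49 to 162 for lower in R397W, 21 to 100 for higher and 55 to 197 for WT Foxp3 above IgG. Leaving out a library can only keep or raise them, and the same counts over all sites were not made. The genotype difference in the Foxp3 minus IgG ratio of reads outside to inside genes (-0.35), also chosen then, was -0.32 with each site capped at the 99th percentile, 0.042 without the 10 sites with the most reads, -0.21 with gene bodies widened by 5 kb, and -0.56 to -0.14 with a library left out. Members numbered 259 with gene bodies widened by 5 kb, 232 outside the bodies of all annotated genes and 309 with the whole site outside.

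With a replicate block, 0 members were called in each fit. Members with an unadjusted p under 0.05 numbered 6 for R397W against WT Foxp3, 20 for WT Foxp3 over IgG and 10 for R397W Foxp3 over IgG. They numbered 23 between IgG groups and 16 for the interaction. In the same order, 140, 360, 190, 304 and 219 of all 5521 sites had such a p. The labels do not say whether replicate numbers pair the samples. Correlations of replicate deviations between groups were 0.04 to 0.17 over all sites. The mean deviation of each group was removed first, so these correlations cannot show a shift shared by all sites of a replicate. They therefore do not decide whether a block is needed. The other pseudocounts, the removal of the lowest 25% of sites, equal totals, edgeR and DESeq2 gave 0 called members in each comparison.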
